A study of Homo sapiens with 2 samples.

Results

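QPRT and 8 further enzymes that make NAD or turn it into NADP were followed in KASUMI-1 cells, 9 genes of the 50464 symbols in the deposited table. They were chosen by name (QPRT, NAMPT, NAPRT, NMNAT1, NMNAT3, NADSYN1, NADK, NADK2 and NMRK1) with the high ratio of QPRT in these libraries already known, so every value below is a description. KASUMI-1 is a human acute myeloid leukaemia line that carries the RUNX1-RUNX1T1 fusion, and the study concerns the stability of such fusion proteins in the presence of the deubiquitinase USP6. The pccl group was KASUMI-1 infected with a lentivirus of that label, taken here as the control, and the USP6 group was KASUMI-1 infected with the USP6 lentivirus. Each group was 1 RNA sequencing library from 1 cell line, so differences lack replicates and were not tested. The labels do not say how long after infection the cells were harvested, or whether infected cells were selected.

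NAD is the electron carrier of most oxidation reactions and the substrate that sirtuins and PARP enzymes consume. Cells make it by 3 routes: de novo from tryptophan through the kynurenine pathway, from nicotinic acid (the Preiss-Handler route), and by salvage of nicotinamide or nicotinamide riboside. QPRT, NAPRT and NAMPT each join the precursor of a route to phosphoribosyl pyrophosphate (PRPP). NMRK1 phosphorylates nicotinamide riboside, NMNAT enzymes add the adenylyl group, NADSYN1 amidates the product of the de novo and Preiss-Handler routes, and the kinases NADK (cytosol) and NADK2 (mitochondria) make NADP. NAMPT is known as the limiting step of nicotinamide salvage and has been studied as a drug target in leukaemia.

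The libraries held 12306442 counts (pccl) and 12518795 counts (USP6), of which 49.9% and 45.6% came from the mitochondrial genome. USP6 itself had 8 counts with pccl and 70 with USP6, and it is not known if this gene's count includes the introduced construct. Of 7 markers of myeloid blasts, 6 reached 1 FPKM (fragments per length of gene and per total count) in a library, with MPO at 27.4 and 122 FPKM and KIT at 99.3 and 39.99 FPKM. CD38 was the exception, with 0 and 8 counts. Among markers of other cells, the T-cell genes summed to 28.9 and 30.1 FPKM. CD3D had 527 and 436 counts, whereas CD3E had 75 and 372, CD2 4 and 81, and CD3G 3 and 5. Of the B-cell genes, CD79A had 2.60 and 10.5 FPKM and MS4A1 0 and 1 counts. The epithelial genes summed to 17.3 and 8.78 FPKM, nearly all EPCAM, with KRT18 and CDH1 at 0, and the erythroid and fibroblast genes stayed under 0.1 FPKM in sum. The part of other cells in the results was not tested.

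The sequences around the starts of QPRT and NAMPT are shown because these genes differed in opposite directions and their starts differ in CG pairs. Each run covers 250 bases before to 50 after a RefSeq start (GRCh38.p14), read along the gene's strand, with CG pairs in capitals. The QPRT window is chr16:29678758-29679057 on the plus strand, at the start the deposited table lists, and the NAMPT window is chr7:106284934-106285233 on the minus strand, downstream of the start the table lists.
QPRT: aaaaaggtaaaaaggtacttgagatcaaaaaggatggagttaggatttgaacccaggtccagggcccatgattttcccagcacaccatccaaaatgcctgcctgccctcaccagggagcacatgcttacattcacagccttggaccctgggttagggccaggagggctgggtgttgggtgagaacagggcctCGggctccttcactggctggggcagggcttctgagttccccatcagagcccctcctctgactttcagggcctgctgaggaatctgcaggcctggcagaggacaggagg
NAMPT: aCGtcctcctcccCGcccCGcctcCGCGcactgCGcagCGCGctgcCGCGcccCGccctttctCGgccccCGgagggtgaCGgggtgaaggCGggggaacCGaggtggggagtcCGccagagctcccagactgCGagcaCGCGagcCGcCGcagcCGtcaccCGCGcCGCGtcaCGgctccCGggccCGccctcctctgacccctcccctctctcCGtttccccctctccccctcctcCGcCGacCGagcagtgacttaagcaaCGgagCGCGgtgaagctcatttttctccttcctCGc
The QPRT window held 1 CG pair, and 11.0% of the 35116 promoter windows of this length held as few. A QPRT start further downstream had 3 CG pairs. The NAMPT window held 38, a number that 91.3% of all windows did not exceed. Over the 13 windows of the 7 enzymes with an entry, CG pairs went from 1 to 38, and QPRT had the lowest numbers. NAPRT and NMRK1 had no window in this comparison. NADSYN1, which was higher in the USP6 library, had 34 CG pairs. Of the enzymes lower there besides NAMPT, NADK had 5, 36 and 6, and NADK2 had 32, 33 and 23. A link between CG pairs and ratios was not tested. The letters TGTGGT and TGCGGT, the core that RUNX proteins bind, were searched on both strands. Either was present in 3 of the 13 windows (1 of 3 for NADK, with TGTGGT, and 2 of 3 for NADK2, with TGTGGT in 1 and TGCGGT in the other) and in 19.6% of all windows. The QPRT and NAMPT windows held neither, which says only that these letters are not in these windows.

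QPRT, the enzyme that turns quinolinate into nicotinate mononucleotide and is the last step specific to the de novo route, was 10.1-fold higher in the USP6 library (95% counting interval 8.84 to 11.6). The pccl library had 230 counts of QPRT (3.24 FPKM) and the USP6 library had 2369 (32.8 FPKM). The counting intervals of its level were 2.83 to 3.69 FPKM and 31.5 to 34.1 FPKM, and they do not cover the spread between libraries. On the scale log2((USP6 + 1)/(pccl + 1)) of FPKM, which shrinks the differences of low genes, its ratio was 2.995, rank 13 from the top among 10153 genes that reached 1 FPKM in a library. Among the levels of these genes it stood at percentile 54.9 with pccl and at 94.7 with USP6. QPRT (ENSG00000103485) is listed on the plus strand of chromosome 16 from 29679008 to 29698699, and the annotated gene that overlaps it, AC009133.22, had 0 counts in both libraries. In such bulk samples, fewer cells with a message and less message per cell cannot be told apart.

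The Preiss-Handler enzymes were higher in the USP6 library by smaller amounts. NAPRT, which starts this route from nicotinic acid, went from 277 counts (2.84 FPKM) with pccl to 550 counts (5.54 FPKM) with USP6. That is 1.95-fold higher (1.69 to 2.26). NAPRT (ENSG00000147813, chromosome 8 from 143574785 to 143578649) overlaps AC067930.5 on the other strand, which had 17 and 46 counts, and strandedness was not given. NADSYN1, the NAD synthetase that the route shares with QPRT, had 1006 counts (3.54 FPKM) and 1306 counts (4.52 FPKM), 1.28-fold higher (1.17 to 1.39). Neither reached a log2 ratio of 1, with 0.77 for NAPRT and 0.28 for NADSYN1 (ENSG00000172890, chromosome 11 from 71453109 to 71524107).

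The salvage enzymes differed in opposite directions. NAMPT (ENSG00000105835, chromosome 7 from 106248285 to 106286326) had 809 counts (5.85 FPKM) with pccl, where it was the highest of the 9 genes as deposited, and 316 counts (2.25 FPKM) with USP6. It was 2.60-fold lower there (2.28 to 2.98), a log2 ratio of -1.08. NMRK1, the riboside kinase, was low in both libraries, with 23 counts (0.325 FPKM) and 57 counts (0.792 FPKM), 2.44-fold higher in the USP6 library (1.48 to 4.14). Its level stayed under 1 FPKM, so that the log2 ratio with the pseudocount was 0.44.

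The adenylyl transfer enzymes that the routes share were the lowest of the 9 in the pccl library together with NMRK1. NMNAT1, the nuclear enzyme, had 25 counts (0.307 FPKM) and 36 counts (0.435 FPKM), a ratio of 1.42 (0.827 to 2.46). NMNAT3, described as mitochondrial, had 61 counts (0.460 FPKM) and 87 counts (0.644 FPKM), a ratio of 1.40 (0.999 to 1.98). Both intervals include 1, but they cover counting error only, and a difference was not tested for these or the other enzymes. Their relative NMNAT2 had no count in either library.

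Both NAD kinases were lower in the USP6 library. NADK2 (ENSG00000152620, chromosome 5 from 36192592 to 36242279) had 701 counts (4.80 FPKM) with pccl and 282 counts (1.90 FPKM) with USP6, 2.53-fold lower (2.20 to 2.91). NADK (ENSG00000008130, chromosome 1 from 1751232 to 1780457) had 231 counts (1.96 FPKM) and 108 counts (0.902 FPKM), 2.18-fold lower (1.72 to 2.76). The log2 ratio was -1.001 for NADK2, just past the limit of -1, and -0.64 for NADK, the next outside it.

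**Figure D1:**
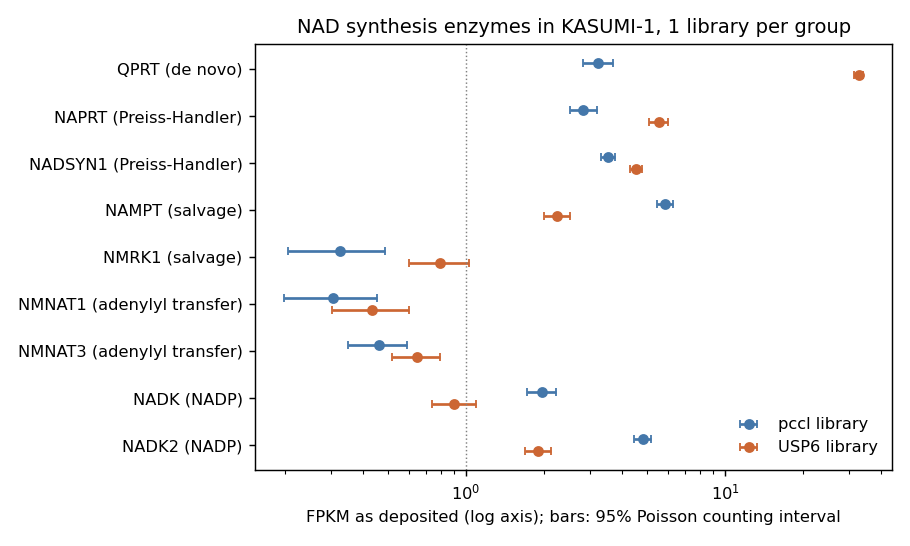
Level of each NAD synthesis enzyme in FPKM on a log axis, with pccl (blue) and USP6 (orange), with bars for the 95% Poisson counting interval and a dotted line at 1 FPKM. QPRT lay at 3.24 and 32.8 FPKM, whereas NAMPT, NADK and NADK2 lay lower in the USP6 library and NMNAT1, NMNAT3 and NMRK1 under 1 FPKM in both.

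Counted together, 1 of the 9 enzymes (QPRT) was at or past a log2 ratio of 1 and 2 (NAMPT and NADK2) at or past -1. Of the 10153 genes with at least 1 FPKM, 25.1% passed the limit in either direction, 13.7% higher and 11.4% lower. The enzymes past it are 3 of 9, or 3 of the 6 that reached 1 FPKM as those genes did, too few to read a difference in share from. Among the genes past the limit, 54.7% were higher as deposited and 65.4% with both libraries scaled to the same FPKM sum, whereas lower genes were the more numerous with the trimmed mean of M values (47.0% higher), nuclear depth (47.6%), median centring (47.8%) and GC centring (49.6%). At 1.5-fold on the same scale, 2 enzymes were higher and 3 lower, against 27.7% and 24.3% of all genes (51.9% together). The median log2 ratio was 0.17 over the 9 enzymes and 0.15 over the 8 without QPRT. Both medians include enzymes under 1 FPKM, all with a positive ratio, so they are not set against the 0.06 of all genes with at least 1 FPKM. Among the 6 enzymes at that level, the middle values were 0.28 for NADSYN1 and -0.64 for NADK. A level of 1 FPKM was reached by 6 of the 9, all but NMNAT1, NMNAT3 and NMRK1.

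The summed message of the enzymes other than QPRT was 20.1 FPKM with pccl and 17.0 FPKM with USP6. QPRT made up 13.9% of the 9-gene sum with pccl and 65.9% with USP6. Among the 3 enzymes that use PRPP, QPRT had 27.2% of the summed FPKM in the pccl library, NAPRT 23.8% and NAMPT 49.0%. In the USP6 library the shares were 80.8%, 13.6% and 5.53%, so that NAMPT went from the largest to the smallest share of these messages. These are shares of message per length as deposited and not of enzyme activity.

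The order of levels depends on the gene length behind FPKM. The deposited values imply a length of 5770 bases for QPRT and 23104 bases for NADSYN1, against longest transcripts of 2343 and 3616 bases. In 86.4% of 9940 genes with at least 100 counts, the implied length equalled the summed length of all distinct annotated exons, overlapping exons counted repeatedly, within 0.1%. Genes with many annotated isoforms are thereby listed lower. As deposited, the order in the pccl library was NAMPT, NADK2, NADSYN1, QPRT, NAPRT and NADK, and the counting intervals of QPRT overlapped those of both NADSYN1 and NAPRT. Per length of the longest transcript, NADSYN1 came first with 22.6 FPKM and QPRT followed NADK2, NAMPT and NAPRT with 7.98 FPKM. In the USP6 library QPRT came first with either length, at 32.8 FPKM as deposited and 80.8 FPKM per longest transcript. The next level there was that of NAPRT as deposited, at 5.54 FPKM, and that of NADSYN1 per longest transcript, at 28.9 FPKM. NMNAT1 was last in both libraries with either length, and its interval overlapped that of NMNAT3. The shares given above depend on the length too. Per longest transcript, QPRT made up 10.0% and 53.8% of the 9-gene sum, and the other enzymes summed to 71.5 and 69.3 FPKM. The shares of QPRT, NAPRT and NAMPT among the PRPP users were then 23.6%, 33.9% and 42.5% with pccl. With USP6 they were 74.3%, 20.6% and 5.07%.

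Ratios in these libraries moved with the GC content of the transcripts, and the enzymes span that range. NAMPT and NADK2 had 36.3% and 36.5% GC in the longest transcript, against a median of 48.3% over genes with at least 1 FPKM, and NAPRT had 68.0%. QPRT, NADSYN1 and NADK had nearly equal GC content (57.4%, 57.4% and 56.5%) and log2 ratios of 2.995, 0.28 and -0.64. After subtraction of the trend with GC, the log2 ratio was 2.62 for QPRT, -0.76 for NAMPT and -0.68 for NADK2, so that neither of the lower enzymes passed -1. The trend at the GC content of NAPRT was 0.87, and the ratios of NAPRT and NADSYN1 turned to -0.10 each. NADK went to -0.97. Whether GC content plays a part in these differences was not tested.

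**Figure D2:**
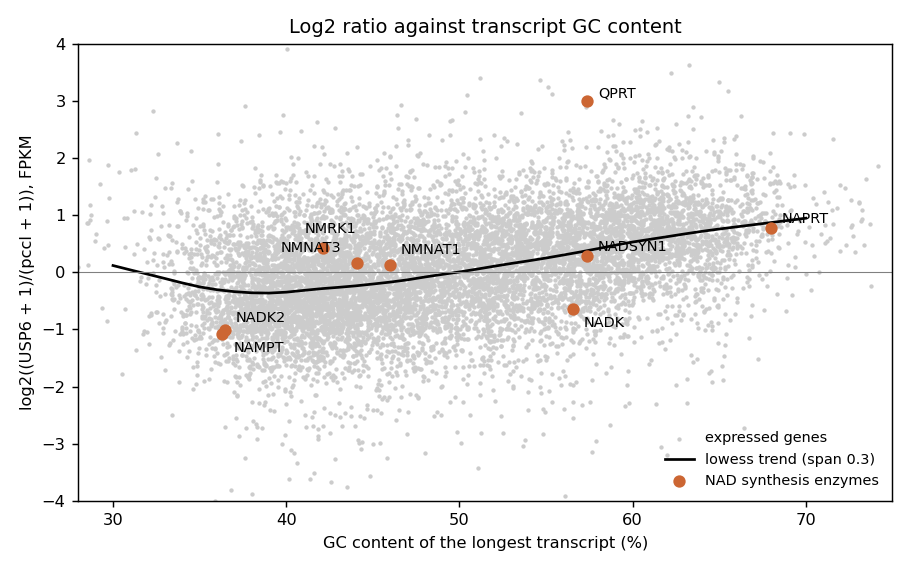
Log2((USP6 + 1)/(pccl + 1)) of FPKM against the GC content of the longest transcript, for genes with at least 1 FPKM (grey, 12 outside the axes), their lowess trend (black) and the 9 enzymes (orange). QPRT lies 2.62 above the trend, NAPRT and NADSYN1 each 0.10 below it and NADK 0.97 below it.

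The kynurenine pathway upstream of QPRT was listed with gaps. The genes of the opening step, TDO2, IDO1 and IDO2, had no count in either library, and neither had KMO, the hydroxylase of kynurenine, or ACMSD, which draws the precursor of quinolinate away. By the floor used here, a count of 0 allows up to 3 counts in each library. KYNU, the kynureninase, had 14 and 8 counts. HAAO, the hydroxyanthranilate dioxygenase that makes the direct precursor of quinolinate, had 106 counts (1.82 FPKM) with pccl and 424 counts (7.15 FPKM) with USP6. It was 3.93-fold higher (3.17 to 4.91), the same direction as QPRT, with a log2 ratio of 1.53 that was 0.89 after GC centring. AADAT, an aminotransferase that makes kynurenic acid, had 2.70 and 0.770 FPKM, 3.51-fold lower (2.50 to 5.03), with a log2 ratio of -1.07 that was -0.77 after GC centring. AFMID, the formamidase, had 1.67 and 1.17 FPKM. Of the 11 genes of this list, 4 reached 1 FPKM, and 1 was higher and 1 lower by the limit of 1, against 13.7% and 11.4% of all genes with at least 1 FPKM.

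The other genes that supply or use PRPP were lower more often than higher. Of 9 genes listed besides QPRT, NAPRT and NAMPT, 7 of which reached 1 FPKM, 3 were at or past -1 and none at or past 1, against 11.4% and 13.7% of all genes with at least 1 FPKM. Their median log2 ratio was -0.41. This list too is too short to read a difference in share from. With a pseudocount of 5, 1 gene was at or past -1, as were 301 of all 10153 genes with at least 1 FPKM. PRPS1, a PRPP synthetase, had 303 counts (7.40 FPKM) with pccl and 75 counts (1.80 FPKM) with USP6, 4.11-fold lower (3.18 to 5.37). PRPS2, the other synthetase on the list, had 29.96 and 26.5 FPKM. PPAT, which opens purine synthesis, was 4.11-fold lower (3.35 to 5.09), and PRTFDC1, a relative of HPRT1, 7.91-fold lower (5.71 to 11.2). HPRT1, the purine salvage enzyme, had 58.2 and 31.95 FPKM. APRT was the 1 gene of the list with a positive log2 ratio, 0.61. The 3 lower genes also passed -1 after GC centring, with -1.47 for PRPS1, -1.21 for PPAT and -1.91 for PRTFDC1.

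Enzymes that consume NAD showed 2 of 26 genes at or past 1 and none at or past -1, with 20 of the 26 at 1 FPKM or more. Over all genes with at least 1 FPKM the shares were 13.7% and 11.4%, and the list is too short to read a difference in share from. With a pseudocount of 0.1 the list had 5 genes higher and 3 lower, and with one of 5 it had 0 and 0. Of all 10153 genes with at least 1 FPKM, 2295 were higher and 1993 lower with a pseudocount of 0.1. With one of 5, 364 were higher and 301 lower. The median log2 ratio of the list was 0.16. PARP10, a mono-ADP-ribosyltransferase, had 1.64 and 7.85 FPKM, 4.80-fold higher (4.23 to 5.45). It overlaps GRINA on the other strand, which had 146 and 107 counts. SIRT6, a nuclear sirtuin, had 1.91 and 5.13 FPKM, 2.69-fold higher (2.28 to 3.18). After GC centring both were under 1, at 0.91 and 0.32, and PARP6 passed it, at 1.11 against 0.87 before. PARP6 had 3.86 and 7.91 FPKM. PARP14 was just short of the limit at -0.99, with 1.31 and 0.166 FPKM. PARP1, the main consumer in DNA repair, had 3.68 and 2.93 FPKM. The consumer CD38 had 0 and 8 counts, and SIRT1 had 2.94 and 2.73 FPKM.

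Of 17 further genes of NAD synthesis, precursor handling and transport, none passed 1 or -1. Over all genes with at least 1 FPKM the shares were 13.7% and 11.4%. Only 5 of the 17 reached 1 FPKM, and 5 others had no count in either library. With a pseudocount of 0.1, 1 gene of the list was higher and 1 lower, against 2295 and 1993 of the 10153 genes with at least 1 FPKM. NNMT, which methylates nicotinamide, was among those without a count. NUDT12, a hydrolase of NADH, came closest, with 45 and 148 counts (0.648 and 2.09 FPKM) and a log2 ratio of 0.91. It passed 1 after GC centring, at 1.11. PNP, the purine nucleoside phosphorylase that also splits nicotinamide riboside, had 5.59 and 3.15 FPKM and a ratio of -0.67. SLC25A51, the mitochondrial NAD carrier, had 68 and 46 counts.

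**Figure D3:**
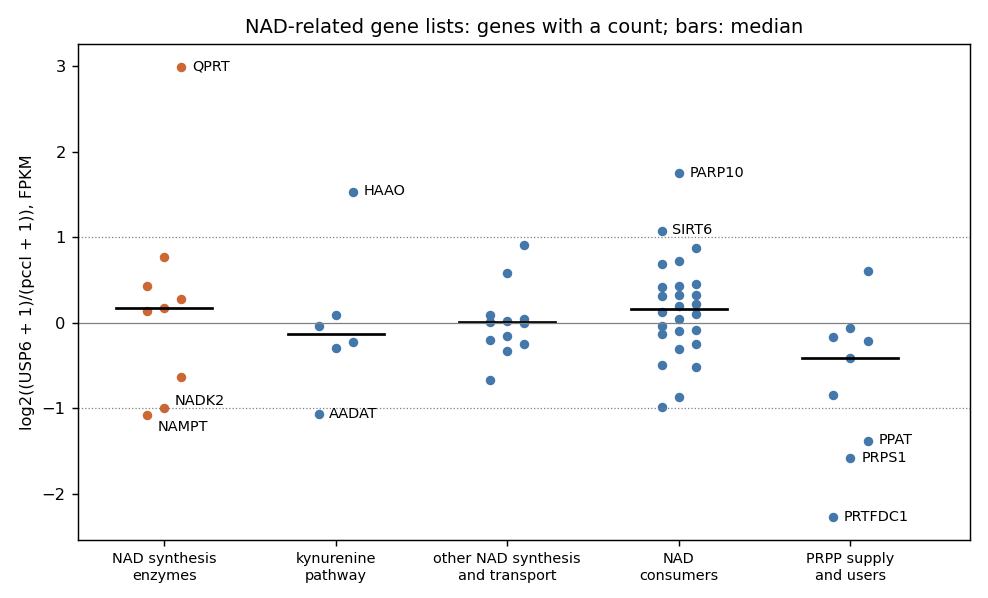
Log2((USP6 + 1)/(pccl + 1)) of FPKM for every gene with a count in the 9 enzymes and in 4 related lists, with bars at the list medians and dotted lines at 1 and -1. QPRT at 2.995 stands above every other gene plotted, and PRTFDC1 at -2.27 below.

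The genes around QPRT on chromosome 16 were mostly higher in the USP6 library too. Of 17 other genes with at least 1 FPKM whose locus reaches within 300 kb of either end of the QPRT locus, 16 had a positive log2 ratio, against 52.4% of all genes with at least 1 FPKM, and 5 were at or past 1, against 13.7%. The median was 0.70. The closest upstream gene, SPN (leukosialin), had 437 and 1037 counts, 2.33-fold higher (2.08 to 2.61). C16orf54 downstream had 255 and 848 counts, 3.27-fold higher (2.84 to 3.78), and KIF22, a kinesin, 1146 and 2190 counts. MAZ was the exception, with 1070 and 698 counts and a ratio of -0.52. RN7SKP127, a 7SK-like copy, rested on 2 and 36 counts, and such copies share reads with their relatives. AC120114.4, also past 1, rested on 0 and 7 counts. RN7SKP127, AC120114.4, MVP and CDIPTOSP reached 1 FPKM in the USP6 library only. Their positive sign thus follows from the filter and adds nothing to the count of higher neighbours. The 17 neighbours are GC-rich, with a median of 58.9%. After GC centring 14 of the 17 were positive with a median of 0.12, against a median of -0.02 over all genes with at least 1 FPKM. At or past 1 were 2, RN7SKP127 and C16orf54, against 979 of the 10105 such genes with a GC value. Both counts still include the genes that reached 1 FPKM in the USP6 library only, RN7SKP127 among them. The part of GC content in the ratios of the neighbours was not tested.

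**Figure D4:**
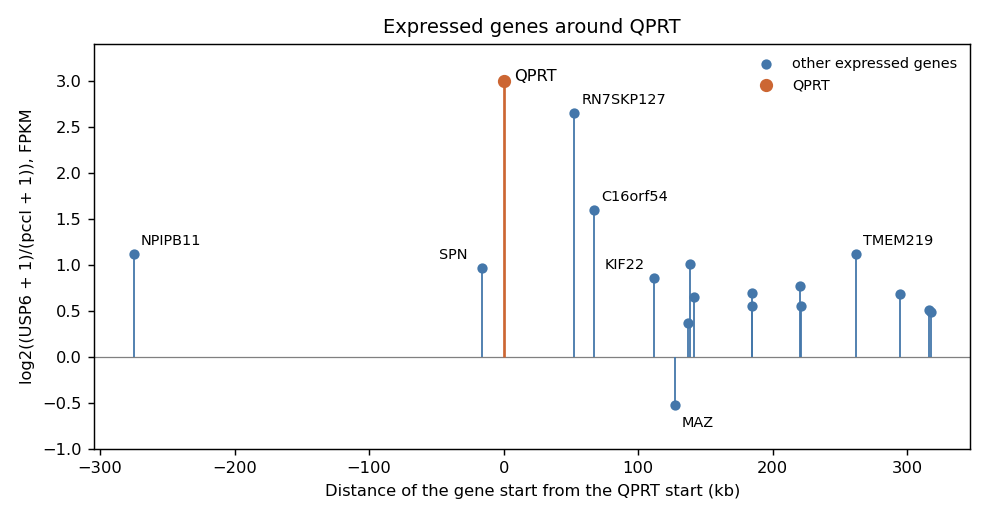
Log2((USP6 + 1)/(pccl + 1)) of FPKM for QPRT (orange) and the 17 other genes with at least 1 FPKM whose locus reaches within 300 kb of the QPRT locus (blue), by the distance of each gene start from the QPRT start in kb. All but MAZ lie above 0, and none reaches the 2.995 of QPRT.

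The genes whose pair of levels lay nearest to that of QPRT were TPM2, ZNF358, CPXM1, LGALS1 and PPAN-P2RY11. Likeness was the Euclidean distance between log2(FPKM + 1) values over the 2 libraries, and it was 0.41 for TPM2 and 0.48 for PPAN-P2RY11. TPM2, a tropomyosin, had 3.91 and 42.0 FPKM, and CPXM1 3.02 and 24.4 FPKM. With 2 libraries, such likeness says only that a gene was similarly low in one and high in the other.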

How the data were processed

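RNA sequencing of 1 pccl and 1 USP6 library of KASUMI-1 cells was used, grouped by the treatment given in the labels. HISAT2 2.0.4, StringTie 1.3.3b and edgeR are named in the submitters' processing notes, without their roles; the build, the annotation and strandedness are not given in the sources used here. Whole-number counts and FPKM values per gene make up the deposited table, per the file headers. The FPKM values deposited by the authors are scaled by the total count, mitochondrial genes included. Of 50111 identifiers in GENCODE release 29, 94.9% had the identical locus, so transcript lengths and GC content came from it.

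Values of genes with 1 symbol were summed (50868 identifiers, 50464 symbols). With 0 residual degrees of freedom no count model was fitted. Log2 ratios used a pseudocount of 1 FPKM and a limit of 1. Folds are FPKM ratios with exact conditional binomial (Clopper-Pearson) intervals at 95%, and levels have exact Poisson intervals. Both cover counting error only, and copies of 1 molecule made by PCR are not independent. GC centring used a lowess trend (span 0.3) over 10105 genes, and enzymes under 1 FPKM were read off that trend. The enzymes and lists were chosen with earlier results of these data known. Named were all 9 enzymes, all list genes past the limit with up to 4 more per list by size of ratio, any kynurenine gene, overlapping genes, the neighbours and the 5 genes most like QPRT. NMNAT2, NNMT, SLC25A51, PARP1, SIRT1, CD38 and the cell markers quoted were named outside this rule, after their values were seen. Of the cell markers checked, a further marker is not reported here. The steps were tested on simulated data. Alternatives were pseudocounts of 0.1, 0.5 and 5, 5 other scalings, GC centring, FPKM filters, a 1.5-fold limit and single identifiers, and, chosen after seeing the data, the longest transcript as length. Promoter sequences and counts of letters are from RefSeq (GRCh38.p14). The trimmed mean of M values came from edgeR 4.0.16 in R 4.3.3, intervals from SciPy 1.17.1, the trend from statsmodels 0.14.6 and plots from matplotlib 3.10.9 in Python 3.11.15.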

Additional observations from a re-analysis of the deposited data

How the results depend on the processing

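The log2 ratio of QPRT kept its sign and stayed past 1 under all 10 alternatives, from 2.20 with a pseudocount of 5 to 3.30 with one of 0.1. It was 3.15 with a pseudocount of 0.5, 2.62 after GC centring and 3.19 per longest transcript. The number of enzymes higher went from 1 to 2 with a pseudocount of 0.1, which added NMRK1 (1.07), and with the 1.5-fold limit, which added NAPRT. The number lower went from 2 to 0 with a pseudocount of 5, with values scaled to the same FPKM sum and after GC centring, and to 1 with the upper quartile. It was 3 with a pseudocount of 0.1, which added NADK (-1.04), and with the 1.5-fold limit. It was also 1 with a filter of 5 FPKM, which leaves out NADK2 by construction. Over all genes with at least 1 FPKM, 1396 were higher and 1156 lower as deposited. With a pseudocount of 0.1 these were 2295 and 1993, and with one of 5 they were 364 and 301. The lower genes numbered 919 with the same FPKM sum, 1051 with the upper quartile and 995 after GC centring. NAMPT passed -1 under 7 of 10 alternatives (range -1.34 to -0.58) and NADK2 under 6 (-1.29 to -0.51), both with the same sign throughout. NAPRT and NADSYN1 kept their sign under 9 of 10, with GC centring the exception. Scaling to the same FPKM sum moved the median of all genes from 0.06 to 0.20, so the 3.14 of QPRT under it is to be read against that. Among the other enzymes' ratios, the lists' counts and the counts over all genes, 123 values moved little, 57 moved further and 0 changed the sign of a called value. The cause of these changes was not tested. No paired analysis was possible because each group is 1 library. At 23 to 87 counts, the ratios of NMRK1, NMNAT1 and NMNAT3 are known only within wide counting intervals.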
